A study of Mus musculus with 36 samples.

Results

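Pseudogenes are copies of genes that no longer encode a working product. Those examined here lie away from protein-coding genes: they are the loci with the biotype pseudogene in the RefSeq table of the mouse mm10 assembly, on the 19 named autosomes, with at least 5 kb between them and any protein-coding gene. The rule kept 5896 of the 8797 such pseudogenes, among 46709 autosomal genes. Of the others, 1972 overlapped a protein-coding gene and 929 lay within 5 kb of one without overlapping it. The members ran from 46 to 429487 bp, with a median of 928 bp, and their median distance to a protein-coding gene was 41238 bp.

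The study mapped where tagged histone H4 sits in the genome of mouse embryonic stem cells (mESCs), cultured cells derived from the early embryo. The 4 lines were compared, each carrying a stable PiggyBac transposon insert in otherwise parental cells. The H4K91R line expressed H4K91R_3HA, in which the lysine at position K91 is replaced by arginine. The H4K91Q line expressed H4K91Q_3HA, in which it is replaced by glutamine. The H4WT line expressed H4WT_3HA, the unchanged histone with the same tag, and the empty vector line carried the transposon with no histone. All lines keep their own untagged H4. Chromatin was fixed, sheared and pulled down with anti-HA beads, and each group is 1 library, so no difference between groups has a replicate check and no p-value is given. The series holds 36 samples, 18 of them pulldowns; the peak lists of these 4 mESC lines were used, leaving 32 samples unused. The lists held 49155 peaks for H4K91R, 14314 for H4K91Q, 69158 for H4WT and 3007 for the empty vector.

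Pseudogenes arise in several ways. A processed pseudogene is a messenger RNA copied back into DNA and inserted elsewhere, usually without its promoter; abundant transcripts, such as those of ribosomal proteins, have left many. A duplicated pseudogene is a copy of a stretch of genome that later decayed, as in the clusters of olfactory and vomeronasal receptor genes, whose products detect odours and pheromones. Histone H4 is one of the core proteins around which DNA is wrapped. K91 lies in its globular part, where H4 meets the H2A-H2B dimer. It can be acetylated, and arginine keeps the charge of lysine while glutamine lacks it.

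The sequence tables used here hold promoters of protein-coding and long non-coding RNA (lncRNA) genes and none of pseudogenes, so the members' own sequences are not shown. Peaks at members overlapped 3 listed lncRNA promoters, and the 2 with at least 10 CG dinucleotides are printed. The peaks cover only part of each printed sequence. The third promoter, that of Gm32952, holds 8 CG and was overlapped in part by an H4WT peak of 5.59-fold at the pseudogene Gm13426. Each runs from 250 bases before to 50 bases after the gene start, 5′ to 3′ on the strand of the lncRNA, from RefSeq on mm10, with every CG in capitals. The promoter of Gm29709 lies at chr12:85407854-85408153 on the plus strand, beside the pseudogene Gm51954. The promoter of Gm33434 lies at chr4:34485542-34485841 on the minus strand and overlaps the pseudogene Gm12350.
Gm29709: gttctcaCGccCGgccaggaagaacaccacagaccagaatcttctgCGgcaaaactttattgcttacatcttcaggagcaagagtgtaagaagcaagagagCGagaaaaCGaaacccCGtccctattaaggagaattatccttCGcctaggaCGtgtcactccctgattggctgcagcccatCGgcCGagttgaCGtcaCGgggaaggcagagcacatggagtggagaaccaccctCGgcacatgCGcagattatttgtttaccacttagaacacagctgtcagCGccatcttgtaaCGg
Gm33434: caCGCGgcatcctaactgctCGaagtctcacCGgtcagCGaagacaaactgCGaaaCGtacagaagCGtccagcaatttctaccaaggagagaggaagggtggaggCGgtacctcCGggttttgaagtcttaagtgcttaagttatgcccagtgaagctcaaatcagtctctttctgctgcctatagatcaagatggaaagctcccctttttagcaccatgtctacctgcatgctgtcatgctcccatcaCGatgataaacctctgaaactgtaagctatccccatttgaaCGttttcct
The first holds 16 CG and the second 12, and 19.1% of the 11311 listed lncRNA promoters of this length hold at least 10. Gm51954 had a peak in the H4K91R list (4.54-fold over background, as the authors' peak caller gives it) and in the H4K91Q list (6.76-fold), and none in the H4WT or empty vector lists. Gm12350 had a peak in the H4K91R list (7.41-fold) and in the H4WT list (10.5-fold), and none in the H4K91Q or empty vector lists. The peaks at the promoter of Gm29709 spanned 85407670 to 85408017 (H4K91R) and 85407669 to 85407888 (H4K91Q). Those at the promoter of Gm33434 spanned 34485765 to 34486123 (H4K91R) and 34485785 to 34486113 (H4WT). The 2 promoters were thus overlapped, each in part, by peaks of different combinations of tagged histones.

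A member was called marked by a library when at least 1 peak overlapped the kilobase on either side of its start or of its end. H4K91R marked 415 members, or 7.04% (exact 95% interval 6.40 to 7.72%). The same pair of windows, placed at every 2 kb of the space at least 5 kb from protein-coding genes and spaced for the median member, met an H4K91R peak at 3.34% of positions. H4K91Q marked 162 members, or 2.75% (2.35 to 3.20%), against 1.8% of positions. H4WT marked 506 members, or 8.58% (7.88 to 9.33%), against 3.14% of positions. The empty vector marked 37 members, or 0.628% (0.442 to 0.864%), against 0.19% of positions. All intervals cover counting error only, since the number of reads behind the lists is unknown. The share of members was 2.11 times that of positions for H4K91R (1.91 to 2.31), 1.53 times for H4K91Q (1.31 to 1.78), 2.73 times for H4WT (2.51 to 2.97) and 3.30 times for the empty vector (2.32 to 4.54). The excess over positions was thus present in the control without a tagged histone as well, and its part in the excess of the tagged lists was not tested; with every peak that overlaps an empty vector peak removed, the ratios were 2.07 for H4K91R, 1.52 for H4K91Q and 2.70 for H4WT.

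Counted by single ends, a 2 kb window centred on a member's start or end met a peak in 5.28% of 11792 windows for H4K91R (against 2.46% of the 2 kb tiles of the same space), 2.04% for H4K91Q (1.37%), 6.72% for H4WT (2.27%) and 0.475% for the empty vector (0.132%).

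Most pseudogenes carried nothing: 5161 members had no peak in any of the 4 lists, 728 (12.3%) had a peak of at least 1 tagged histone, and 7 had a peak of the empty vector alone. The order of the tagged histones depends on the length of the lists. When each tagged list was shortened to its 14314 strongest peaks, H4K91R marked 183 members (3.10%), H4K91Q 162 (2.75%) and H4WT 94 (1.59%). H4WT, which marked the most members over the whole lists, then marked the fewest. Against positions marked by the same shortened lists, the ratios were 2.51 for H4K91R, 1.53 for H4K91Q and 4.05 for H4WT. H4WT thus still stood furthest above positions among the tagged histones.

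**Figure D1:**
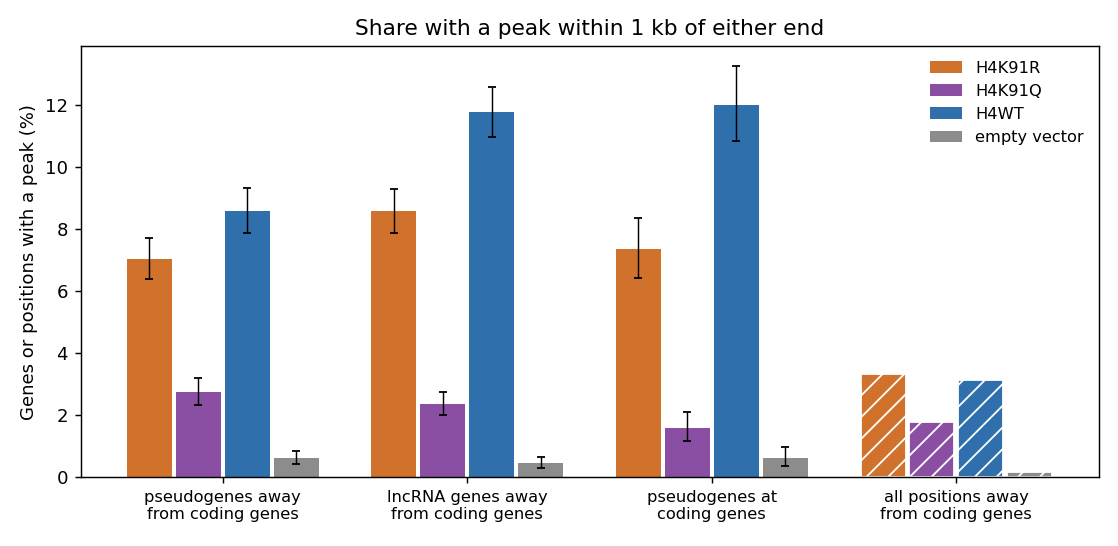
Share of genes or positions with a peak in the windows (percent, with exact 95% intervals for counting error) for H4K91R, H4K91Q, H4WT and the empty vector, in pseudogenes away from coding genes and in the classes they are compared with. Members stand above positions in each of the 4 lists. Protein-coding genes and transcribed pseudogenes are not drawn. Protein-coding genes stood far above members and positions for H4K91R (40.4%) and H4WT (61.6%) but not for H4K91Q (1.36%).

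Other classes of gene set the scale. Protein-coding genes were marked in 40.4% of cases by H4K91R, 1.36% by H4K91Q, 61.6% by H4WT and 1.77% by the empty vector. H4K91Q is the tagged histone whose share was higher at the members (2.75%) than at protein-coding genes. The 2901 pseudogenes closer than 5 kb to a coding gene, or overlapping one, had 7.34% marked by H4K91R, 1.59% by H4K91Q, 12% by H4WT and 0.62% by the empty vector. H4WT was thus less frequent at the members than at those near coding genes (10.8 to 13.2%), and H4K91Q more frequent (1.16 to 2.11%), with exact 95% intervals that do not meet those of the members. The 252 pseudogenes away from coding genes that RefSeq classes as transcribed, which are not members, had 18.7% marked by H4K91R, 6.75% by H4K91Q, 22.2% by H4WT and 0.794% by the empty vector. The 6232 lncRNA genes at the same distance had 8.57%, 2.36%, 11.8% and 0.465% in that order of libraries.

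The values on either side of the 5 kb limit were as follows. Of 165 members 5 to 6 kb from a coding gene, 18 were marked by H4K91R, 6 by H4K91Q, 27 by H4WT and 0 by the empty vector. Of 197 pseudogenes 4 to 5 kb away, 9 were marked by H4K91R, 5 by H4K91Q, 20 by H4WT and 0 by the empty vector.

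The combinations of tagged histones at a member were uneven. H4K91R alone marked 124 members (2.10%, against 1.32% of positions), and H4K91Q alone marked 28 (0.475%, against 0.625%). H4K91R and H4K91Q without H4WT marked 70 (1.19%, against 0.739%). H4K91R with H4WT marked 159 (2.70%, against 0.874%), all 3 tagged histones marked 62 (1.05%, against 0.409%), and H4K91Q with H4WT marked 2. H4WT alone was the most frequent state over the whole lists, at 283 members (4.80%, against 1.84%). The share of H4K91Q alone at members had an exact 95% interval of 0.316 to 0.686%, which contains the share of positions. The order of the states turned when the tagged lists were cut to equal length: H4K91R alone then marked 58 members (0.984%), H4K91Q alone 63 (1.07%), both mutants 71 (1.20%) and H4WT alone 40 (0.678%). Positions were not divided by combination at equal list length.

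**Figure D2:**
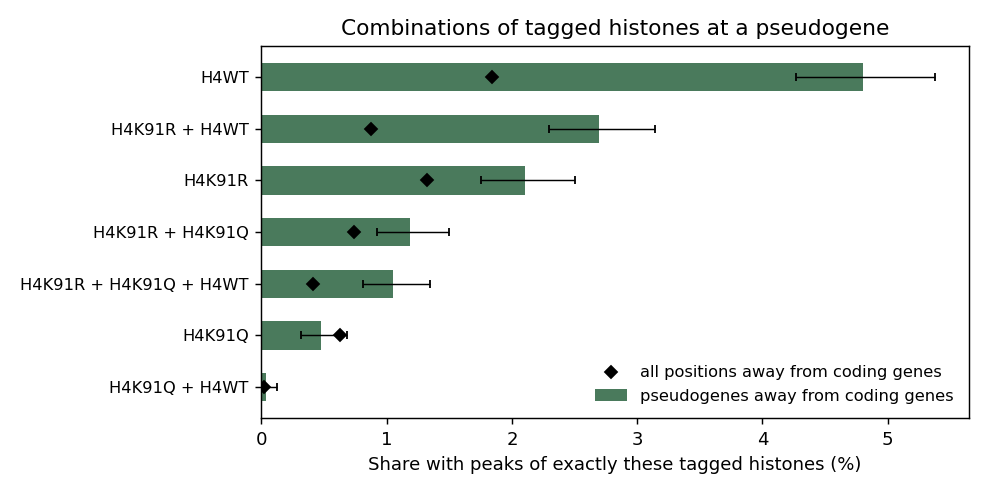
Members and positions by combination of tagged histones, as a share of all members or positions (percent). H4WT alone (4.80%) and H4K91R with H4WT (2.70%) lead at members over the whole lists; at equal list length H4WT alone stood at 0.678%, below H4K91R alone (0.984%) and H4K91Q alone (1.07%). The interval of H4K91Q alone at members (0.316 to 0.686%) contains the share of positions (0.625%).

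The overlap of the lists at members was counted next. Over the whole lists, of which that of H4K91R is the longer, 28 of the 162 members marked by H4K91Q had no other tagged histone, and at equal list length 63 of 162 had none. Of the members marked by H4K91Q, 81.5% were also marked by H4K91R, against 63.9% of the positions marked by H4K91Q and 88.5% of the protein-coding genes it marked. Of the members marked by H4K91R, 53.3% were also marked by H4WT, against 38.4% at positions and 94.996% at protein-coding genes. Where 2 lists marked the same member, their peaks mostly overlapped: at 124 of 132 members for H4K91Q and H4K91R (93.9%), at 200 of 221 for H4K91R and H4WT (90.5%), and at 51 of 64 for H4K91Q and H4WT (79.7%). Empty vector peaks overlapped a peak of the tagged list at 20 of 23 members shared with H4K91R, 4 of 6 shared with H4K91Q and 22 of 26 shared with H4WT.

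The enrichment over background that the peak caller gives is comparable within a list only. Each member was represented by its strongest peak in the list. In the H4K91R list, the median of these folds was 5.19 where H4K91R stood alone, 6.59 with H4K91Q, 5.67 with H4WT and 9.47 where all 3 were present. In the H4K91Q list it was 5.34 alone, 5.94 with H4K91R and 5.63 with all 3. In the H4WT list it was 5.38 alone, 6.44 with H4K91R and 7.53 with all 3. The strongest peak of a member was thus higher at members with all 3 tagged histones in the H4K91R and H4WT lists, but not in the H4K91Q list. Members with all 3 also held more peaks. The 62 such members had 95 H4K91R and 81 H4WT summits in their windows. The 124 members with H4K91R alone had 110, and the 283 with H4WT alone had 296. The part of peak number in these medians was not tested.

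Peaks at members made up 1.05% of the H4K91R list (514 peaks), 1.73% of the H4K91Q list (248), 0.852% of the H4WT list (589) and 1.33% of the empty vector list (40). Their median width was 285.5 bp for H4K91R, 332.5 bp for H4K91Q, 248 bp for H4WT and 173 bp for the empty vector, against 271, 317, 267 and 174 bp over the whole lists. Peaks of 1 kb or more made up 2.14% of the H4K91R peaks at members (11 peaks), against 1.404% of its whole list. They made up 7.66% of the H4K91Q peaks at members (19 peaks), against 5.41% of its list, and 0.679% of the H4WT peaks at members (4 peaks), against 2.26% of its list. In the empty vector 2 of 40 were this wide, against 0.299% of its list.

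Peak summits, the points of highest signal, lay more densely inside the pseudogenes than beside them. The pseudogene itself makes up 34.9% of the bases in the windows. It held 282 of 477 H4K91R summits (59.1%, exact 95% interval 54.6 to 63.6%), 93 of 219 H4K91Q summits (42.5%, 35.8 to 49.3%), 386 of 575 H4WT summits (67.1%, 63.1 to 71.0%) and 30 of 39 empty vector summits (76.9%, 60.7 to 88.9%). Per megabase, H4K91R had 44.7 summits inside, 16.5 in the flanks and 12.3 over the whole space away from coding genes. H4K91Q had 14.7 inside, 10.7 in the flanks and 7.65 over the space. H4WT had 61.2 inside, 16.0 in the flanks and 11.1 over the space. The empty vector had 4.75 inside, 0.763 in the flanks and 0.609 over the space. The density inside was 3.63 times that of the space for H4K91R, 1.93 times for H4K91Q, 5.52 times for H4WT and 7.81 times for the empty vector, whereas in the flanks the ratio lay between 1.25 and 1.45 in each of the 4 lists.

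**Figure D3:**
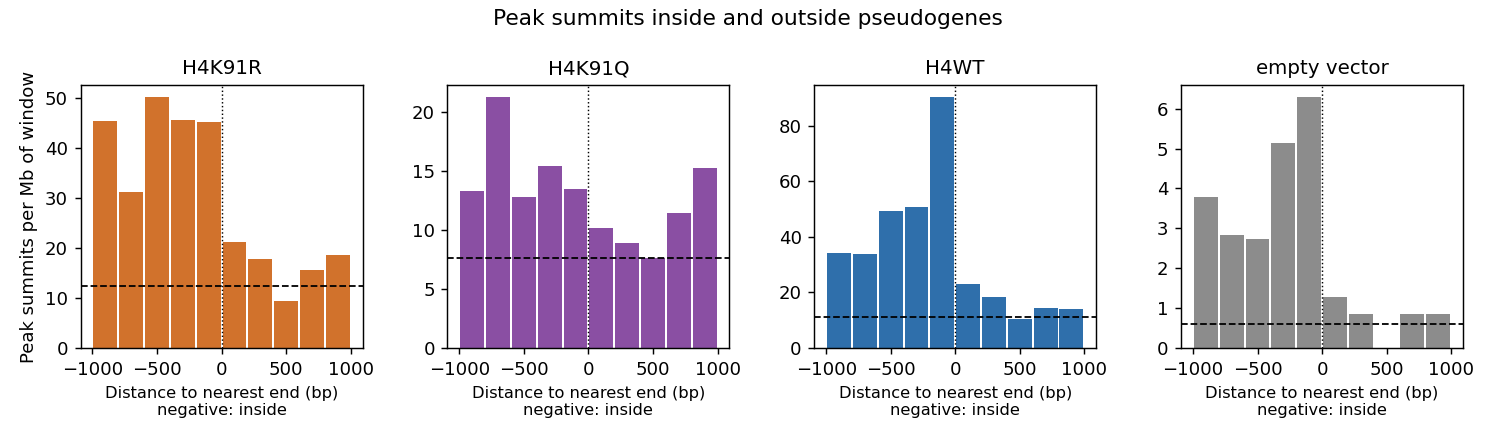
Summits per megabase of window (y axis, one scale per panel) by distance to the nearest pseudogene end in bins of 200 bp, with negative distances inside the pseudogene. The H4WT density is 90.2 per megabase in the last 200 bp inside the end and 22.9 in the first 200 bp outside it. In the empty vector these densities are 6.28 and 1.27.

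At the pseudogene's end, H4WT fell from 90.2 summits per megabase in the last 200 bp inside to 22.9 in the first 200 bp outside. H4K91R fell from 45.3 to 21.2, H4K91Q from 13.5 to 10.2 and the empty vector from 6.28 (14 summits) to 1.27 (3 summits). A step was thus present in the control without a tagged histone as well. lncRNA genes at the same distance from coding genes, whose own bodies make up 49.1% of the window bases, held 56.8% of H4K91R, 43.8% of H4K91Q, 56.4% of H4WT and 62.1% of empty vector summits inside. At members, the share of H4K91R summits inside was 58.2% where it stood alone, 47.3% with H4K91Q, 72.6% with H4WT and 46.3% with all 3. H4K91Q summits lay inside in 8 of 31 cases (25.8%) where H4K91Q stood alone, in 42.4% with H4K91R and in 48.3% with all 3. H4WT summits lay inside in 68.6% where it stood alone, 70.4% with H4K91R and 54.3% with all 3. The members that carry H4WT without H4K91Q are thus those whose peaks most often sit on the copy itself.

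Members nearer to coding genes were marked more often by the tagged histones, and so were positions. At 5 to 20, 20 to 100 and at least 100 kb from a coding gene, H4K91R marked 9.05%, 7.17% and 4.82% of members, against 5.48%, 4.18% and 2.12% of positions. H4WT marked 11.04%, 8.96% and 5.59% of members in these classes, against 5.99%, 4.13% and 1.59% of positions. H4K91Q marked 3.66%, 2.60% and 1.99% of members. The empty vector marked 10, 13 and 14 members in these classes (0.539%, 0.582% and 0.775%), with overlapping intervals of 0.259 to 0.988%, 0.310 to 0.993% and 0.424 to 1.30%. The ratio of members to positions over these classes was 1.65, 1.72 and 2.28 for H4K91R, 1.31, 1.22 and 1.59 for H4K91Q, 1.84, 2.17 and 3.53 for H4WT, and 1.90, 2.57 and 5.68 for the empty vector. Members thus stood furthest above positions in the most remote class in each of the 4 lists, the control included.

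The number of protein-coding genes in the same megabase gave a similar order. With 0 to 1, 2 to 12 and 13 or more such genes, H4K91R marked 3.74%, 7.25% and 8.85% of members, H4K91Q 1.34%, 2.75% and 3.68%, and H4WT 3.92%, 8.83% and 11.2%. The ratio to positions over these classes was 2.08, 2.11 and 1.24 for H4K91R, 1.15, 1.48 and 1.14 for H4K91Q, 3.25, 2.84 and 1.33 for H4WT, and 7.47, 2.59 and 1.90 for the empty vector. Members lie in denser surroundings than positions, with a median of 7 coding genes per megabase against 3, and the values within each class compare members with positions of like density. In the densest class the H4WT ratio was 1.33, well under its pooled value of 2.73.

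**Figure D4:**
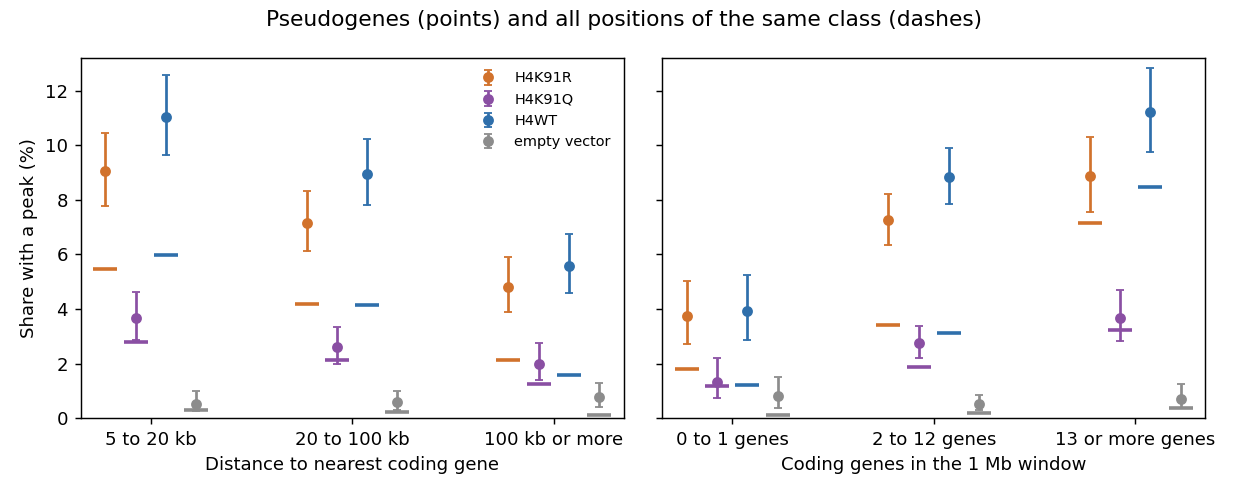
Share of members and of positions marked (percent) by distance to the nearest protein-coding gene and by the number of coding genes in the same megabase. For the tagged histones, shares fall with distance and climb with gene density in both, and the H4WT ratio of members to positions is 1.33 in the densest class and 3.53 beyond 100 kb.

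Longer pseudogenes were not uniformly more marked. The windows at the start and the end overlap in members under 2 kb, so less sequence was searched there. Positions were not counted by the length classes below, and the part of window size in the shares of each class was not tested. For all members together, positions were also laid out at the lengths of groups of members. The ratio of members to positions was then 1.97 for H4K91R, 1.44 for H4K91Q, 2.55 for H4WT and 3.12 for the empty vector. For members under 500 bp, of 500 bp to 2 kb and over 2 kb, H4K91R marked 6.23%, 6.05% and 10.98%, H4K91Q 3.02%, 2.18% and 4.36%, H4WT 7.79%, 8.14% and 10.7%, and the empty vector 0.584%, 0.618% and 0.697%. By chromosome, H4K91R ran between 3.76% of members on chromosome 14 (2.43% of positions) and 10.3% on chromosome 4 (3.75% of positions). H4K91Q ran between 1.14% on chromosome 16 (2 of 175 members, 1.61% of positions) and 4.60% on chromosome 13 (16 of 348 members, 2.03% of positions). H4WT ran between 4.70% on chromosome 14 (1.93% of positions) and 13.2% on chromosome 17 (4.30% of positions). In each pair, positions differed in the same direction as members.

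Members were then divided by the kind of gene they copy, as far as symbols and synonyms tell. Of the 5896 members, 865 fell into 1 of 14 families and 373 carried the symbol of a protein-coding parent that is listed in the table. Receptor copies (olfactory, vomeronasal and taste; a grouping joined after their values were seen) numbered 474 and were the least marked by H4WT: H4K91R marked 11 (2.32%), H4K91Q 12 (2.53%), H4WT 7 (1.48%) and the empty vector 0, which allows a share of up to 0.775% by the exact interval. They lie in gene-dense places, with a median of 25 coding genes per megabase. Copies with a listed parent numbered 373: H4K91R marked 28 (7.51%), H4K91Q 12 (3.22%), H4WT 48 (12.9%) and the empty vector 3. The remaining 5049 had 376 (7.45%) marked by H4K91R, 138 (2.73%) by H4K91Q, 451 (8.93%) by H4WT and 34 by the empty vector. H4K91Q thus varied little between these kinds of copy, while H4WT spanned 1.48 to 12.9%. H4WT summits were 122.6 per megabase inside copies with a listed parent and 10.7 in their flanks; at receptor copies they were 4.52 inside and 4.22 in the flanks.

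Ribosomal protein copies numbered 184, of which 10 were marked by H4K91R, 4 by H4K91Q, 18 by H4WT and 0 by the empty vector. Rpl19-ps1, a copy of a large-subunit protein gene, had an H4K91R peak of 4.52-fold and an H4WT peak of 9.85-fold, and none in the other lists. Rps19-ps5, a copy of a small-subunit protein gene, had peaks of 5.59-fold in H4K91R, 4.66-fold in H4K91Q and 7.23-fold in H4WT, and none in the empty vector. These shares, 5.43% for H4K91R (2.64 to 9.77%), 2.17% for H4K91Q (0.595 to 5.47%) and 9.78% for H4WT (5.90 to 15.02%), have intervals that contain the shares of all members (7.04%, 2.75% and 8.58%).

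Olfactory receptor copies numbered 238, with 9 marked by H4K91R, 8 by H4K91Q, 4 by H4WT and 0 by the empty vector. The 236 vomeronasal and taste receptor copies had 2, 4, 3 and 0. Vmn2r-ps26 was the strongest of them in H4WT, with peaks of 9.90-fold in H4K91R, 3.44-fold in H4K91Q and 8.52-fold in H4WT, and none in the empty vector. Chaperone and cyclophilin copies numbered 80, with 7 marked by H4K91R, 1 by H4K91Q, 3 by H4WT and 0 by the empty vector. Gm6060, in this family by its synonym, had 2 H4K91R peaks, the stronger of 6.34-fold, and an H4WT peak of 8.15-fold.

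The shares of all members were 7.04% for H4K91R, 2.75% for H4K91Q and 8.58% for H4WT. The smaller families hold too few copies to set their shares apart from these, except for H4WT at pluripotency and germ-cell copies. Among 16 translation factor copies, H4WT marked 2 and the mutants 0: Eef2-ps2, a copy of the elongation factor 2 gene, with 2 peaks of up to 6.31-fold, and Tpt1-ps3 with 1 of 4.94-fold. Among 15 glycolytic enzyme copies, H4K91R marked 2, H4K91Q 0 and H4WT 1, which was Gpi-ps, a copy of the glucose phosphate isomerase gene, at 4.96-fold in H4K91R and 4.74-fold in H4WT. Tubb4b-ps2, a beta-tubulin copy, had all 3 tagged histones, at 9.50-fold in H4K91R, 6.04-fold in H4K91Q and 4.19-fold in H4WT. H2-Q3, of the class I histocompatibility cluster, had 2 H4K91R peaks of up to 10.4-fold and 3 H4WT peaks of up to 5.05-fold. The list of pluripotency and germ-cell factors matched 55 copies by a few name stems (such as Nanog, Tdgf1 and Pramel) and does not cover every germ-cell gene: H4K91R marked 1 of them, Tdgf1-ps1 at 4.23-fold, and the other 3 lists marked 0. For H4WT, 0 of these 55 copies gave an exact interval of 0 to 6.49%, below the 8.58% of all members. The intervals were not corrected for looking at 14 families in 3 tagged lists, and no depletion was tested. Dnd1-ps, a copy of a germ-cell gene outside those name stems, is described with the empty vector peaks. Zinc finger copies (10 members) had 1 marked by H4K91R and 1 by H4WT, which was Zfp520-ps in both. Histone and HMG protein copies that matched the name stems used (8 members) had 1 marked by H4K91R and by H4K91Q, Hmgb1l, and 0 by H4WT. Gm4938, whose synonym H3mm14 is that of a histone H3 copy, fell outside those stems and is not in this count. Among 11 copies of mitochondrial energy genes, H4WT alone marked 1, Cox5b-ps at 4.73-fold. The 7 ubiquitin and proteasome copies and the 3 nucleolar copies had no peak.

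**Figure D5:**
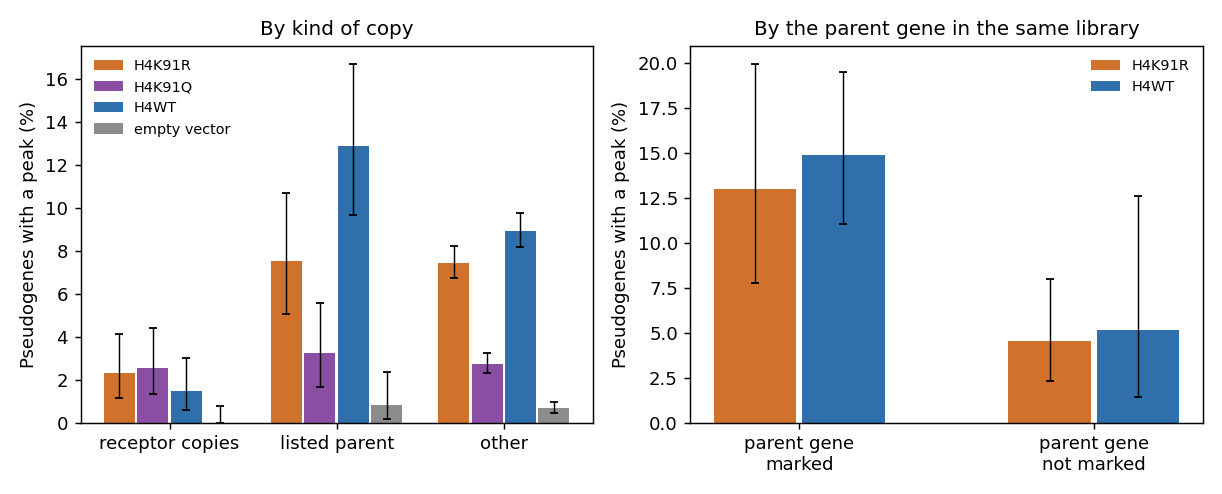
Share of members marked (percent, with exact 95% intervals) by kind of copy and by whether the parent gene is marked in the same list. Copies with a marked parent stand at 12.98% for H4K91R and 14.9% for H4WT, against 4.55% and 5.13% of copies with an unmarked parent.

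Over the whole lists, the share of copies marked was higher where the same list marked the parent, with intervals that overlap. For H4K91R, 17 of 131 copies of marked parents had a peak (12.98%, exact 95% interval 7.74 to 19.96%), against 11 of 242 copies of unmarked parents (4.55%, 2.29 to 7.99%). For H4WT, 44 of 295 copies of marked parents had a peak (14.9%, 11.1 to 19.5%), against 4 of 78 copies of unmarked parents (5.13%, 1.41 to 12.6%). For H4K91Q, 2 copies had a marked parent and 0 of them had a peak, against 12 of 371 copies of unmarked parents, which is too few to compare. For H4K91R the difference nearly vanished with a stricter q or shorter lists. With only peaks at a −log10 q of at least 5, the shares were 5.13% (4 of 78) for marked parents and 4.41% (13 of 295) for unmarked ones. At equal list length they were 3.85% (1 of 26) and 3.17% (11 of 347). With peaks that overlap an empty vector peak removed, the difference stayed, at 11.45% (15 of 131) against 4.55% (11 of 242). For H4WT at equal list length, the shares were 4.39% (5 of 114) for marked parents and 1.93% (5 of 259) for unmarked ones. With the stricter q they were 12.98% (34 of 262) and 3.60% (4 of 111). With the peaks over empty vector peaks removed they were 14.3% (42 of 294) and 5.06% (4 of 79). A copy and its parent share sequence, so reads of one can be placed on the other, and the part of this in the shares was not tested. Where both had a peak, the parent had the higher fold at 5 of 17 copies in the H4K91R list (medians 5.59 for copies and 4.71 for parents) and at 32 of 44 in the H4WT list (5.84 for copies and 7.25 for parents). The ribosomal protein copies gave 4 of 36 with a marked parent and 5 of 137 with an unmarked one in H4K91R, and 16 of 144 and 1 of 29 in H4WT.

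Single loci show the range. Gm15784 (chromosome 6, 149361502 to 149366370, 25839 bp from Resf1) held the strongest H4K91R peak of any member, at 30.7-fold and 3060 bp wide, and an H4K91Q peak of 12.7-fold and 3356 bp, the widest H4K91Q peak at a member. It held an H4WT peak of 20.6-fold and 641 bp, also the strongest at a member, and an empty vector peak of 4.62-fold and 163 bp. Mup-ps26 (chromosome 4, 60479408 to 60479609), a fragment in the major urinary protein cluster, had peaks of 28.5-fold in H4K91R, 11.99-fold in H4K91Q and 16.7-fold in H4WT, and none in the empty vector. Both loci were thus among the strongest in all 3 tagged lists.

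Ppp1r2-ps5 (chromosome 17, 6492191 to 6494321), a copy of the gene of a protein phosphatase 1 inhibitor, had peaks of up to 20.1-fold in H4K91R, 14.7-fold in H4K91Q, 15.3-fold in H4WT and 5.83-fold in the empty vector. Gm18390 on chromosome 5 had peaks of up to 27.0-fold in H4K91R, 9.47-fold in H4K91Q and 12.4-fold in H4WT, and none in the empty vector. Its H4K91Q peak was 3115 bp wide, against 1260 bp in H4K91R and 1039 bp in H4WT. Gm8255 (chromosome 12) held the strongest H4K91Q peak at a member, 15.3-fold, with 16.8-fold in H4K91R and 7.99-fold in H4WT. Gm13136 (chromosome 4) had 14.2-fold in H4K91R, 4.65-fold in H4K91Q and 19.7-fold in H4WT. The empty vector list held a peak at 1 of these 4 loci.

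Among members with both mutants and no H4WT peak, Gm38840 (chromosome 6) had the highest H4K91R fold, 12.2, with an H4K91Q peak of 6.95-fold and 1072 bp. Gm4938 (chromosome 13; synonym H3mm14) had 1 H4K91R peak of 11.8-fold and 3 H4K91Q peaks, the strongest of 7.79-fold and 1859 bp wide. Gm15377 (chromosome 11) had 2 peaks in each mutant list, of up to 11.1-fold in H4K91R and 12.8-fold in H4K91Q. Among members with H4WT alone, Gm7318 (chromosome 15) led with 11.1-fold, followed by Gm8623 (chromosome 8) with 10.2-fold. Best4-ps, a copy in the bestrophin family of chloride channels, held 4 H4WT peaks of up to 9.48-fold. These H4WT peaks had no counterpart in the other 3 lists.

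The empty vector list holds the peaks called in the pulldown without a tagged histone, and their origin was not tested. Of its 37 members, 26 were also marked by H4WT and 23 by H4K91R. Its strongest peak at a member, 7.01-fold, was at Gm13234 (chromosome 4), which also had peaks of 9.51-fold in H4K91R, 6.58-fold in H4K91Q and 6.58-fold in H4WT. Dnd1-ps, a copy of a germ-cell gene, had 5.00-fold in H4K91R, 5.71-fold in H4WT and 6.94-fold in the empty vector. Gm46314 (chromosome 12) had an empty vector peak of 6.23-fold and none in the tagged lists.

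Rn18s-rs5 (chromosome 17, 39846354 to 39848202), a sequence related to the 18S ribosomal RNA gene, stood apart. It lay under a single peak of 6124 bp in H4K91R (8.89-fold) and of 6062 bp in H4WT (8.15-fold), the widest at any member in each list. H4K91Q had 3 peaks there, of up to 1.505-fold, and the empty vector had 4, the strongest of 5.20-fold and 3460 bp, its widest at a member. Ribosomal RNA genes exist in many near-identical copies, so the placing of reads here is uncertain, and the presence of strong empty vector peaks stands beside the values of the tagged histones.

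Marked members were spread thinly. Joining those whose windows overlap turned the 5896 members into 5712 loci, with at most 3 members in a locus. No megabase held more than 4 marked members for H4K91R, 3 for H4K91Q or 5 for H4WT. Several megabases tied at 4 for H4K91R, among them 1 with 4 of 16 members (chromosome 17, 36 to 37 Mb) and 1 with 4 of 4 (chromosome 7, 28 to 29 Mb). For H4K91Q, 3 of 7, 3 of 8 and 3 of 9 members tied, at 147 to 148 Mb of chromosome 4 and at 62 to 63 and 3 to 4 Mb of chromosome 13. For H4WT, 5 of 16 members were marked at 36 to 37 Mb of chromosome 17. At 147 to 148 Mb of chromosome 4, H4K91R and H4WT each marked 4 of the 7 members.

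Listed lncRNA promoters were counted last, over the 9291 lncRNA genes that have one. Among the members, 57 had one in a window, and peaks at members overlapped such a promoter in 2 of 514 cases for H4K91R, 1 of 248 for H4K91Q, 2 of 589 for H4WT and 0 of 40 for the empty vector. A further 448 members had a lncRNA gene in their windows with no listed promoter there, and of these H4K91R marked 28 (6.25%), H4K91Q 6 (1.34%), H4WT 44 (9.82%) and the empty vector 4 (0.893%). Over all listed lncRNA promoters, those with at least 10 CG, like the 2 printed above, overlapped a peak in 29.5% of cases for H4K91R, 1.39% for H4K91Q, 57.5% for H4WT and 0.785% for the empty vector. Those with fewer overlapped one in 2.47%, 0.623%, 3.51% and 0.153% of cases in that order.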

How the data were processed

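HA ChIP-seq peak lists of 4 mESC libraries were used, 1 per group. Peaks were called with MACS2 on mm10, per the submitters' processing notes; no label names an aligner, a version, a threshold or a read number (for all of these: not given in the sources used here), so depth is unknown. The deposited lists give, per peak, a score, a fold enrichment (ratio), and −log10 p-values and q-values; each score equals 10 times the −log10 q, rounded down. Scores and p-values were used for no result. Starts were made 1-based.

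Genes came from the RefSeq table for mm10 (49997 genes). It lists 333 autosomal scaffold genes, 87 of them pseudogenes, under chromosome numbers with scaffold coordinates; these were left out. Families were matched by fixed name stems in symbols and synonyms, which miss members named otherwise, since the table holds no descriptions, strands or exons. Copies of near-identical sequence are uncertain, because how the authors placed such reads is not stated.

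Members were called marked by overlap of at least 1 bp with 1 kb either side of a gene end. Instead of the random placements first planned, window pairs for a 928 bp gene were laid at every 2 kb of the 1258 Mb away from coding genes. Exact Clopper-Pearson 95% intervals were used; no test compared libraries. Named members (53) were the 8 strongest per library, the 6 strongest per main combination, up to 2 per family and the widest per library; Gm51954, Gm12350 and members counted by locus were named after their values were seen. The members and lists were chosen with earlier results of these data known. The marking step, tested on simulated data, recovered 100% of 200 planted peaks over 5896 members. Python 3.11.15, pandas 2.3.3, numpy 2.4.6 and scipy 1.17.1 were used. Alternatives were a stricter q, equal list lengths, other windows and distances, removal of empty vector peaks, summits in place of overlaps, joined loci and positions by length group.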

Additional observations from a re-analysis of the deposited data

How the results depend on the processing

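No paired analysis was possible because each group has 1 library. With a −log10 q of at least 5, H4K91R marked 4.34% of members, H4K91Q 2.27%, H4WT 6.41% and the empty vector 0.17%. The combinations became 1.12% (H4K91R alone), 0.848% (H4K91R with H4K91Q), 1.58% (H4K91R with H4WT), 0.797% (all 3) and 4.02% (H4WT alone). The ratio of members to positions for H4WT was 3.20, and the H4K91R share of copies of marked parents was 5.13%. At equal list length, H4K91R marked 3.10% and H4WT 1.59%. The combinations became 0.984% (H4K91R alone), 1.07% (H4K91Q alone), 0.441% (H4K91R with H4WT), 0.475% (all 3) and 0.678% (H4WT alone). The ratios were 2.51 for H4K91R and 4.05 for H4WT, H4K91R summits lay inside in 49.2%, and copies of marked parents were marked in 3.85% for H4K91R and 4.39% for H4WT. With 500 bp either side, the shares were 5.43% (H4K91R), 1.90% (H4K91Q) and 7.14% (H4WT), and the combinations 0.729% (H4K91R with H4K91Q), 2.19% (H4K91R with H4WT), 0.712% (all 3) and 4.17% (H4WT alone). With 2 kb either side, the shares were 9.02% (H4K91R), 4.16% (H4K91Q) and 10.6% (H4WT), and the combinations 2.51% (H4K91R alone), 0.933% (H4K91Q alone), 1.56% (H4K91R with H4K91Q), 3.38% (H4K91R with H4WT), 1.58% (all 3) and 5.55% (H4WT alone). With the whole gene and 1 kb, the shares were 8.12% (H4K91R), 3.44% (H4K91Q) and 9.51% (H4WT), and all 3 stood at 1.37%. With pseudogenes at any distance, H4WT marked 9.71%, with 3.17% for H4K91R with H4WT and 5.57% for H4WT alone. At 50 kb or more, the shares were 5.44% (H4K91R), 2.25% (H4K91Q) and 6.45% (H4WT), with 1.80% for H4K91R with H4WT and 3.83% for H4WT alone. Of all values under alternatives, 83 stayed within the main interval and 51 moved; the stricter q and the equal lists hold fewer peaks and the windows differ in size by construction. The ratios, the summit shares and the parent shares were recomputed under alternatives added after seeing the data. With 1 library per group and unknown depth, a missing peak does not show that a histone is absent.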
